A study of Mus musculus with 15 samples.

Results

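The snoRNA host genes described here are Gas5, Snhg1, Snhg3, Snhg5, Snhg6, Snhg8, Snhg12, Zfas1 and Taf1d. They were taken by symbol from the count tables of RNA sequencing in erythroid progenitors of wildtype and Rpl5 mutant mouse embryos. All 9 symbols were found once in each table, among 55487 mouse genes listed in both, and all 9 passed the filter on low counts in every comparison.

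A snoRNA host gene is transcribed and spliced in the usual way, and small nucleolar RNAs (snoRNAs) are trimmed out of its introns. Box C/D snoRNAs guide methylation of ribosomal RNA, and box H/ACA snoRNAs guide its conversion of uridine to pseudouridine. The spliced exons of most noncoding hosts reach the ribosome, where an early stop codon exposes them to nonsense-mediated decay, so that such transcripts are known to accumulate when translation is blocked. Several of them begin with a terminal oligopyrimidine tract, a run of C and T that ties translation of ribosomal protein mRNAs to growth signals.

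The cells came from fetal liver at E12.5, strain 129S6/SvEvTac. The first group of mice (group 1) gave 3 wildtype (WT) and 3 mutant (M) libraries of polyA RNA. The other (group 2) gave 3 of each genotype and 3 further libraries of a low-yield mutant (M-lowyield), and the labels list its molecule as total RNA. The deposited sample sheet of group 2 gives the allele of both kinds of mutant as Rpl5plusSkax23Jus, and that of group 1 gives none. "Low-yield" is not defined, nor do the labels say how the progenitors were isolated or whether embryos were pooled. No label says that the replicates came from separate animals, so the p-values measure the spread between these libraries, which may be technical. The libraries held between 48510828 and 58513669 counts in group 1 and between 24954324 and 44827821 in group 2. Rpl5 itself was lower in the mutants of both groups (log2 fold change -0.32 in group 1, -0.46 for the mutant of group 2 and -0.44 for its low-yield mutant). Because the kind of RNA differs with the group, no level was set against one of the other group of mice. In bulk libraries, fewer cells of a type and less RNA per cell cannot be told apart.

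The first bases of these genes are shown because the start of the transcript is where a terminal oligopyrimidine tract would lie. Promoter sequences from RefSeq (GRCm38.p6) were used for 8 of the 9 genes, all but Snhg6, with 9 start sites because Gas5 has 2. Each line gives 30 bases before and 20 bases from the listed start, 5′ to 3′ on the strand of the gene. Capitals mark the run of at least 5 C or T that begins with C and lies within 15 bases of the start.
Gas5, first start, chr1:161034571-161034620, plus strand: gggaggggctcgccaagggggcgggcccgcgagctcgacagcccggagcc
Gas5, second start, chr1:161035136-161035185, plus strand: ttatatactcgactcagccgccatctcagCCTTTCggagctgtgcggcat
Snhg1, chr19:8723457-8723506, plus strand: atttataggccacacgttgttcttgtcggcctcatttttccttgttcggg
Snhg3, chr4:132353667-132353716, minus strand: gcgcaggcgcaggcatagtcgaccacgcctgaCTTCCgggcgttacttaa
Snhg5, chr9:88522878-88522927, minus strand: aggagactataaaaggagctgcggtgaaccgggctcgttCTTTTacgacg
Snhg8, chr3:123508317-123508366, minus strand: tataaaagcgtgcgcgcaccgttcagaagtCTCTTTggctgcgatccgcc
Snhg12, chr4:132308648-132308697, plus strand: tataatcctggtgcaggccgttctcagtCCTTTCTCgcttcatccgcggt
Zfas1, chr2:167062904-167062953, plus strand: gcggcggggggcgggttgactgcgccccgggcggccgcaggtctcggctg
Taf1d, chr9:15306184-15306233, plus strand: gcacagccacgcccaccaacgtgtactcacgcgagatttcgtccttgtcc

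Such a run was found at 5 of the 9 starts, those of Gas5 (second start), Snhg3, Snhg5, Snhg8 and Snhg12. The same search, on the strand of the gene, found one in 40.1% of 32851 promoters. The run lay within 2 bases of the listed start in the second start of Gas5 and in Snhg3, Snhg8 and Snhg12, and 9 bases into the transcript in Snhg5. A match is a description of these letters in this window and not evidence that the transcript is translated as a tract-bearing mRNA.

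The snoRNAs are the products by which these genes are known. GENCODE M21 places 40 snoRNA genes inside the 9 hosts on the same strand: 10 in Gas5, 8 in Snhg1, 8 in Taf1d, 5 in Snhg12, 3 in Zfas1, 2 each in Snhg3 and Snhg5, and 1 each in Snhg6 and Snhg8. The count includes a second, overlapping entry for each of Snord80 and Snora16a. The sequences below belong to Snhg1, Snhg12 and Taf1d, the hosts called by edgeR in the comparisons with wildtype of each group, without a block. Capitals mark the C box (TGATGA, searched in the first 20 bases) and the D box (CTGA, searched in the last 15 bases), or, in Snora61, the ACA (searched in the last 8 bases of snoRNAs of at least 120 bases).
Gm22744, in Snhg1, chr19:8725092-8725156, plus strand: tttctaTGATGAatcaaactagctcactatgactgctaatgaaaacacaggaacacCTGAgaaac
Gm23246, in Snhg1, chr19:8725594-8725660, plus strand: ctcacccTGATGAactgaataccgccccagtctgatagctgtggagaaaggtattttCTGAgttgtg
Snord99, in Snhg12, chr4:132310691-132310764, plus strand: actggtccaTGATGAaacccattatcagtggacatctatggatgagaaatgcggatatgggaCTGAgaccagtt
Snora61, in Snhg12, chr4:132310240-132310369, plus strand: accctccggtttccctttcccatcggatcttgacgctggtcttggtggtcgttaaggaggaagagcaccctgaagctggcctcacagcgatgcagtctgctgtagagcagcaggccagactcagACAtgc
Gm24299, in Taf1d, chr9:15314074-15314144, plus strand: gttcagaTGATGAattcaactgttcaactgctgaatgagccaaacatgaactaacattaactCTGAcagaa
Gm24357, in Taf1d, chr9:15315522-15315595, plus strand: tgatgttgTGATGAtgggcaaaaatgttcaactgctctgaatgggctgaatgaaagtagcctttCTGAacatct

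Both boxes were present, letter for letter, in 22 of the 40 (55%), against 19.9% of the 1558 snoRNA and scaRNA transcripts of the annotation. A further 10 carried the ACA and 8 carried neither. The hosts differed in what they carried. Gas5 held 8 snoRNAs with both boxes and none with the ACA, whereas Snhg12 held 1 with both boxes and 3 with the ACA, and Taf1d held 2 and 4. Snhg3 and Snhg8 carried snoRNAs with the ACA and none with both boxes. The products themselves were hardly counted in these libraries. Of the 40 rows, 38 were listed at 0 in all 15 libraries, and the others were Snora73a and Snora73b in Snhg3, whose sum was 6 to 19 counts in group 1 and 2 to 38 in group 2. The values below are therefore values of the host genes' rows, and the mature snoRNAs were not measured by them. In Gas5, Snhg1, Snhg5, Snhg8, Snhg12, Zfas1 and Taf1d, no snoRNA lay outside all annotated exons, since some annotated transcripts retain introns. The host rows can thus also count RNA that retains introns, and spliced RNA was not separated from it.

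Reading frames were described from the annotated transcripts, since an exon junction well beyond a stop codon is the mark by which nonsense-mediated decay recognises its targets. Of 90 spliced transcripts of the 9 genes, 75 (83.3%) had at least 1 junction 55 or more bases beyond the stop of the frame opened by their first ATG. Without the protein-coding Taf1d it was 66 of 76 (86.84%), beside 71.61% of 14352 spliced lncRNA transcripts of other genes. Gas5 gave 25 of the 76 and Snhg1 gave 18, mostly retained-intron models, and transcripts of 1 gene are not independent. The number of junctions was not matched between the sets. The hosts differed, from 2 of 2 in Snhg8 and 5 of 5 in Zfas1 to 9 of 14 in Taf1d (64.29%) and 2 of 5 in Snhg3 (40%), both of these below the lncRNA share. The median frame was 1 codon in Snhg8, 4 in Snhg5, 17 in Zfas1, 20 in Snhg3, 23 in Gas5, 39 in Snhg1, 43 in Taf1d, 53 in Snhg6 and 54 in Snhg12. Taf1d is the exception in kind, since it is annotated as protein coding and its longest such frame had 322 codons.

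Per kilobase of annotated exon, Snhg5, the host of Snord50a and Snord50b, was the most abundant of the 9 and Snhg6, the host of Snord87, the least abundant in each of the 5 groups. Levels are given as CPM, that is, counts scaled to a common library size with TMM, divided by the length of all exons merged. In group 1 wildtype libraries Snhg5 stood at 115 ± 14.8 CPM per kb (SD, n = 3), and no other host overlapped it. Snhg1 (47.1 ± 5.42), Snhg8 (46.7 ± 6.60), Snhg12 (38.5 ± 5.19) and Gas5 (35.6 ± 7.19) followed, with each overlapping the next. Taf1d (26.1 ± 3.81), Snhg3 (23.3 ± 1.04) and Zfas1 (22.0 ± 2.02) also overlapped their neighbours, and Snhg6 stood apart at 8.13 ± 1.38.

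In group 2 wildtype libraries the same scale gave 53.7 ± 10.9 CPM per kb for Snhg5 and 32.1 ± 1.48 for Taf1d, which was second there. Snhg1 (27.5 ± 2.35) and Snhg8 (27.3 ± 2.03) overlapped each other, as did Snhg12 (19.4 ± 4.30), Gas5 (17.9 ± 4.05) and Zfas1 (15 ± 3.88). Snhg3 was at 7.58 ± 2.25 and Snhg6 at 2.64 ± 0.237. In both mutant groups of group 2 the libraries of Snhg5 and Taf1d overlapped. The order depends on the length used. Per kilobase of the median annotated transcript, an alternative chosen after seeing the data, Snhg5 still had the highest mean in group 1 wildtype (239 ± 30.6). Snhg1 (232 ± 26.7) and Gas5 (213 ± 42.9) were within its SD there. Taf1d led in group 2 wildtype (244 ± 11.2, against 112 ± 22.7 for Snhg5).

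**Figure D1:**
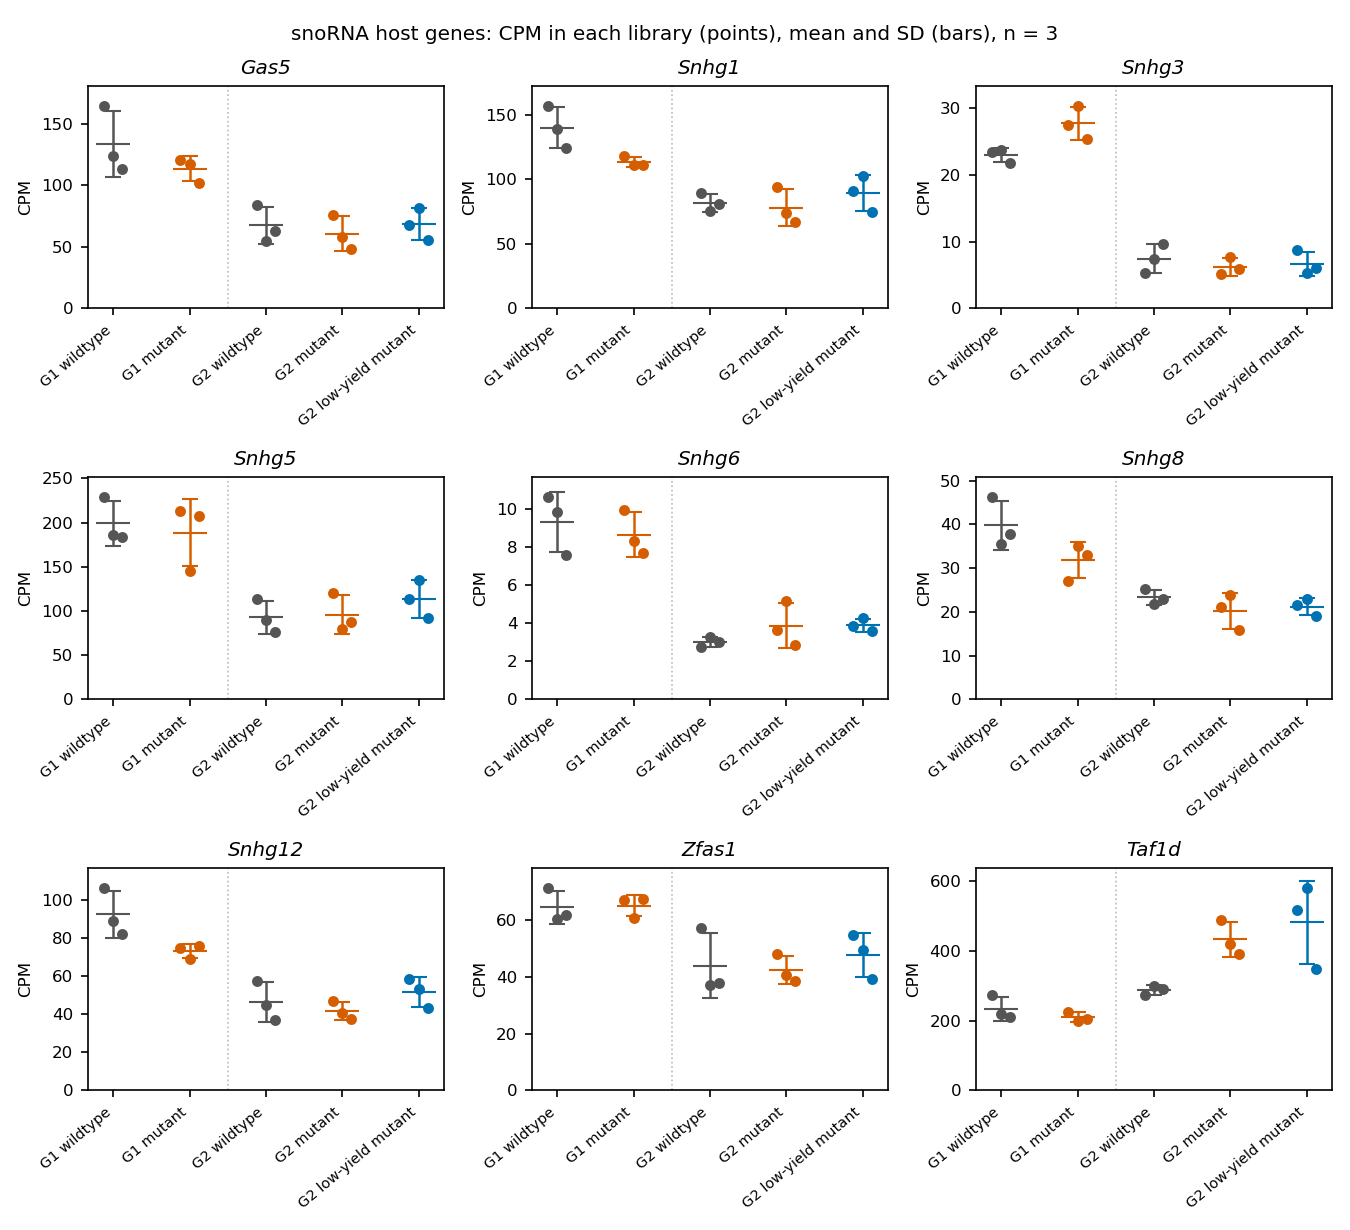
CPM of the 9 host genes (vertical axes, each from 0) in each of the 15 libraries (points), by group, with the mean and SD of 3 libraries (bars). G1 and G2 are the groups of mice, separated by the dotted line. In group 1 the mutant libraries of Snhg1 and Snhg12 lie below all wildtype ones, and in group 2 every mutant library of Taf1d lies above the wildtype range of 273 to 299 CPM.

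In group 1, Snhg1 and Snhg12 fell in the mutant, to 0.81 and 0.793 times their wildtype level, in the fit without the replicate block, which called none of the 9 hosts higher. The fit with the block, given further on, also called Gas5 lower and Snhg3 higher. Snhg1 is the host of Snord22 and 7 further snoRNAs, and its introns rather than its exons are known to be conserved. Wildtype libraries held 156, 139 and 124 CPM of it, and mutant libraries 118, 111 and 111. All mutant libraries lay below all wildtype ones, and wildtype replicate 1 was the highest. The log2 fold change was -0.30 (SE 0.08, adjusted p 0.0309 by edgeR's quasi-likelihood test with Benjamini-Hochberg adjustment over 14048 genes).

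Snhg12, which carries Snora16a, Snora44, Snora61 and Snord99, had 106, 89.3 and 82.0 CPM in wildtype and 74.65, 69.2 and 76.2 CPM in mutant libraries. Again no mutant library reached the wildtype range. The log2 fold change was -0.33 (SE 0.09, adjusted p 0.0351). Called genes made up 12.6% of all genes tested in this comparison (6.78% lower, 5.79% higher), and 2 of 9 is near that background, so the count is not read as a result about the hosts as a group. That share over all genes itself fell to 7.21%, 5.75% and 8.06% without wildtype replicate 1, 2 or 3 and to 5.19% without mutant replicate 3.

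Snhg8, the host of Snora24, had 46.2, 35.5 and 37.7 CPM in wildtype and 27.1, 35.0 and 33.1 in mutant libraries. The groups did not overlap, but wildtype replicate 2 and mutant replicate 2 lay close together. Its log2 fold change of -0.33 (SE 0.12, adjusted p 0.107) did not pass the test.

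Snhg3 had the opposite sign. This gene is the host of Snora73a and Snora73b, the U17 snoRNAs that take part in cleavage of the ribosomal RNA precursor. It had 23.4, 23.7 and 21.8 CPM in wildtype and 27.5, 30.3 and 25.4 in mutant libraries, so that every mutant library was above every wildtype one. The log2 fold change was 0.27 (SE 0.10, adjusted p 0.0905). Libraries separated in this way, lower for 3 hosts and higher for 1, are read against 16.6% and 15% of all genes in which every mutant library was lower or higher.

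The other 5 hosts overlapped between genotypes in group 1. Gas5, a transcript first known for accumulating in growth-arrested cells, had 164, 124 and 113 CPM in wildtype and 121, 117 and 102 in mutant libraries (log2 fold change -0.24, SE 0.15, adjusted p 0.36). Taf1d, a subunit of the SL1 complex that places RNA polymerase I on ribosomal DNA, had a log2 fold change of -0.16 (SE 0.10, adjusted p 0.34). The log2 fold changes of Snhg6 (-0.10), Snhg5 (-0.08) and Zfas1 (0.01) had adjusted p values of 0.736 or more. The median over the 9 hosts was -0.16 on the log2 scale, with 7 of 9 negative, while all tested genes together had a median of 0.01.

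The replicate numbers of group 1 met the criterion for pairing given under the processing, although wildtype replicate 3 did not match its own number best. What the numbers mark is not given in the labels. The fit with the replicate number as a block called 4 hosts, against 20.4% of all genes. Snhg1 (-0.30, adjusted p 0.00374) and Snhg12 (-0.33, adjusted p 0.00475) were joined by Gas5 (-0.22, adjusted p 0.0374), which fell, and by Snhg3 (0.27, adjusted p 0.0483), which rose. Without the block, Snhg1 was no longer called when wildtype replicate 1 (adjusted p 0.157), wildtype replicate 2 (0.107), mutant replicate 2 (0.0828) or mutant replicate 3 (0.153) was left out, and Snhg12 when wildtype replicate 1 (0.157) or 2 (0.0933) or mutant replicate 1 (0.0682), 2 (0.109) or 3 (0.118) was left out. Without wildtype replicate 1, the log2 fold changes were -0.20 for Snhg1 and -0.21 for Snhg12. In the other fits that lost the call they were -0.31 to -0.29 for Snhg1 and -0.36 to -0.30 for Snhg12.

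Markers of the sampled cells moved with genotype in the same libraries. Of 8 erythroid markers 7 were called lower in the group 1 mutant, and their summed level was 3338 to 4265 CPM in wildtype and 2074 to 2091 in mutant libraries. Hepatocyte markers summed to 33.7 to 61.8 CPM in wildtype and 5.83 to 21.7 in mutant libraries, with 2 of 8 called lower. Granulocyte markers summed to 89.2, 651 and 635 CPM in wildtype replicates 1, 2 and 3 and to 243, 1304 and 903 in mutant ones, lowest in replicate 1 of each genotype. Wildtype replicate 1, with the lowest granulocyte sum, is also the library with the highest Snhg1 and Snhg12. Neither host was called without it, nor without wildtype replicate 2, mutant replicate 2 or mutant replicate 3. Of these, wildtype replicate 2 and mutant replicate 2 had the highest granulocyte sums of their genotypes. Granulocyte markers, megakaryocyte markers (18.5 to 29.7 and 27.1 to 42.5 CPM) and macrophage markers (0.619 to 6.27 and 1.84 to 11.5, with C1qc at 0 in the mutant) had no member called by edgeR. Of these 3 lists, only the megakaryocyte one had members at an unadjusted p under 0.05 (3), and DESeq2 called 1 of its genes, while limma called 0 in each. Their part in the result was not tested.

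**Figure D2:**
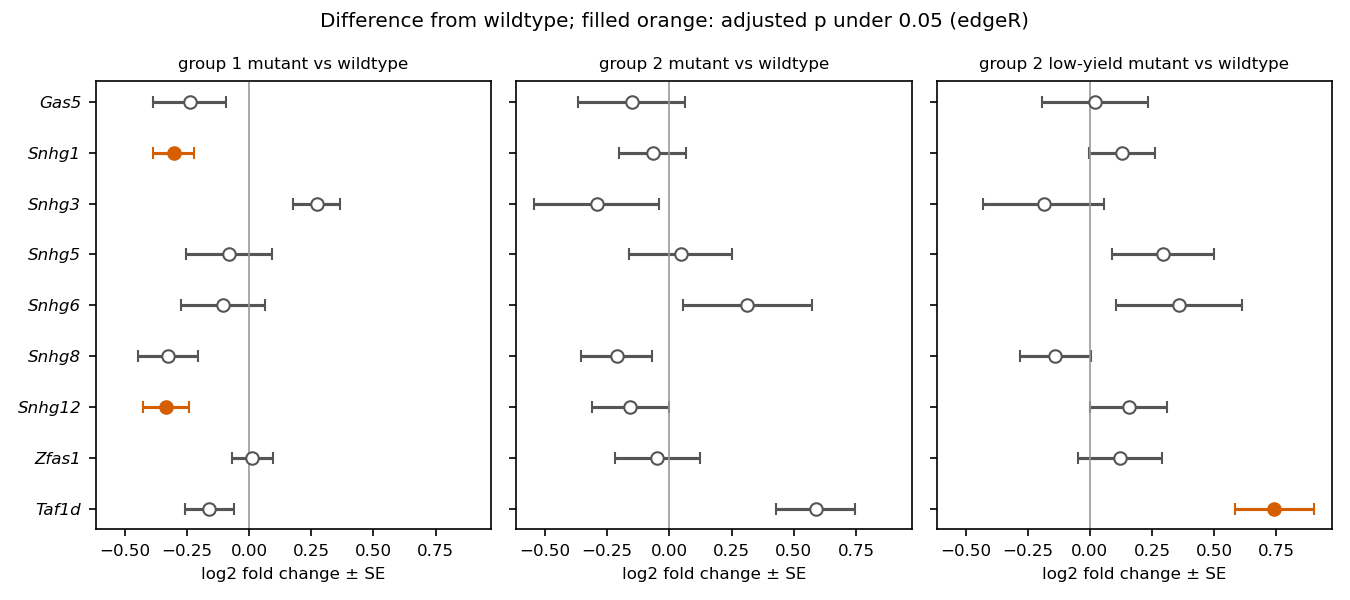
Log2 fold change against wildtype (horizontal axes, shared scale) of each host in the 3 comparisons, with bars of 1 SE. Filled orange points passed the test: Snhg1 (-0.30) and Snhg12 (-0.33) in group 1 and Taf1d (0.74) among the low-yield mutants of group 2.

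In group 2, Taf1d stood above wildtype in every mutant library. The call was made in the low-yield mutant and not in the other one, and the test between both kinds of mutant did not pass (log2 fold change 0.15, SE 0.16, adjusted p 1). Wildtype libraries held 273, 299 and 291 CPM of it. Mutant libraries held 488, 420.3 and 389.5 CPM, and low-yield mutant libraries held 517, 579 and 347 CPM. All 6 mutant libraries lay above the highest wildtype library, and low-yield replicate 3 was the lowest of them. For the mutant, the log2 fold change was 0.59 (SE 0.16, adjusted p 0.0564), a 1.5-fold difference that did not pass the threshold. For the low-yield mutant, it was 0.74 (SE 0.16, adjusted p 0.0127), or 1.67-fold. Both comparisons use the same wildtype libraries, so their likeness is not independent support.

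No host was called in the group 2 mutant by edgeR, where 6.27% of 15024 tested genes were called (3.32% higher, 2.95% lower). That share was 2.74% without wildtype replicate 2, 3.1% without wildtype replicate 3, 2.82% without mutant replicate 1 and 2.78% without mutant replicate 3, and limma called 13.3%. Taf1d was the only host with an unadjusted p under 0.05, and the only host with no overlap between groups, which held for 11.5% of all genes in that direction and 11.8% in the other. DESeq2 called Taf1d (adjusted p 0.00146) and limma called 0 hosts. The edgeR test also called it with only the 6 compared libraries in the fit (adjusted p 0.00345), with genes of a mean CPM of at least 5 (0.0489), or without low-yield replicate 2 (0.0204) or 3 (0.00171).

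In the low-yield comparison, Taf1d was the 1 host of 9 called higher and 0 were called lower, where 6.68% of all genes were called higher and 5.86% lower, and a count of 1 is near that background. Over both directions, the share of all genes was 6.92% without wildtype replicate 2, 7.45% without wildtype replicate 3 and 5.79% without low-yield replicate 1 or 2. Snhg6 was the other host in which every low-yield library lay above wildtype, as in 15.3% of all genes (14.6% had every library lower). It had 2.75, 3.29 and 3.03 CPM in wildtype and 3.84, 4.26 and 3.59 in low-yield mutant libraries (log2 fold change 0.36, SE 0.25, adjusted p 0.408). The call of Taf1d was lost without wildtype replicate 1 (adjusted p 0.06) or wildtype replicate 3 (0.0567), at log2 fold changes of 0.71 and 0.75.

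Snhg1, Snhg12 and Snhg8, the hosts with the lowest values in the group 1 comparison, were not called in group 2. Snhg1 had 89.1, 75.2 and 80.9 CPM in wildtype libraries. Mutant libraries held 93.7, 73.7 and 66.7 CPM of it, and low-yield ones 90.6, 103 and 74.8 CPM. Snhg12 had 57.6, 45.0 and 37.1 CPM in wildtype, against 46.9, 40.6 and 37.5 CPM with the mutation and 58.6, 53.5 and 43.3 CPM in low-yield libraries. Snhg8 had 25.2, 21.75 and 23.0 CPM in wildtype, 21.2, 23.9 and 15.8 in the mutant, and 21.7, 22.9 and 19.1 for the low-yield mutant. The genotypes overlapped in each of them. Log2 fold changes, mutant first and low-yield mutant second, were -0.07 and 0.13 for Snhg1, -0.16 and 0.16 for Snhg12, and -0.21 and -0.14 for Snhg8.

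Snhg3 was at 5.14 to 9.69 CPM over the 3 groups of group 2, with log2 fold changes of -0.29 and -0.19 and SEs of 0.25 and 0.24. The remaining hosts likewise overlapped or missed the threshold. In the same order, they were -0.15 and 0.02 for Gas5, 0.05 and 0.29 for Snhg5, and -0.05 and 0.12 for Zfas1, and 0.31 for Snhg6 in the mutant. The median over the 9 hosts was -0.07 for the mutant and 0.13 for low-yield mutants, against -0.01 and 0.00 over all tested genes.

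Other cell types' markers differed in group 2 beside the Taf1d values. Granulocyte markers summed to 17.2 to 34.8 CPM in wildtype, 136 to 223 in mutant and 166 to 372 in low-yield mutant libraries, with 5 and 7 of 7 called higher. Megakaryocyte markers summed to 15.7 to 18.8, 25.8 to 26.3 and 36.4 to 47.3 CPM, with 1 and 3 of 5 tested called higher and Ppbp at 0 in wildtype. Erythroid markers summed to 3818 to 6664, 2742 to 3155 and 2434 to 3192 CPM, with 2 and 4 of 8 called lower. Hepatocyte markers (10.1 to 76.5, 8.94 to 47.5 and 42.0 to 47.7 CPM) and macrophage markers (0.411 to 2.74, 0.706 to 4.13 and 2.41 to 3.997 CPM, C1qc at 0 in all 3 groups) had no member called by edgeR. No hepatocyte marker had an unadjusted p under 0.05 in either comparison, and DESeq2 and limma called 0 of them. Of the macrophage markers, 1 had such a p in each comparison, DESeq2 called 1 in each, and limma called 1 for the mutant and 0 for low-yield ones. Their part in the Taf1d result was not tested.

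Between the low-yield and the other mutants of group 2, all 9 hosts had a positive log2 fold change, from 0.04 for Snhg6 to 0.31 for Snhg12 (median 0.17, against 0.00 over all genes). None passed the test. edgeR, DESeq2 and limma each called 0 hosts, 0 had an unadjusted p under 0.05, and the percent of all genes called by edgeR was 0. In each host the libraries of both kinds of mutant overlapped, and every low-yield library was higher in 4.07% and lower in 4.15% of all genes.

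With both groups of mice in 1 fit and the group as a block, edgeR called 0 of 9 hosts, against 19.6% of 15954 genes (9.8% in each direction). An unadjusted p under 0.05 was found for 3 hosts, all lower in the mutant: Snhg8 (log2 fold change -0.28, SE 0.10, adjusted p 0.0507), Snhg12 (-0.25, SE 0.10, adjusted p 0.0932) and Snhg1 (-0.19, SE 0.09, adjusted p 0.143). DESeq2 called 2 of them, Snhg8 (adjusted p 0.0478) and Snhg12 (0.0498), and limma called Snhg8 (0.0207). With the replicate number as a further block, although only the numbers of group 1 met the criterion for pairing, edgeR called Gas5 (adjusted p 0.0331), Snhg1 (0.0301), Snhg8 (0.0456) and Snhg12 (0.0118), all lower, against 24.4% of all genes. The median over the 9 hosts was -0.02.

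Whether the genotype effect differed between the groups of mice was tested by an interaction term. Taf1d differed most among the 9, with a log2 difference of 0.77 (SE 0.15) in the joint fit, an unadjusted p of 0.000111 and rank 5 of 15954 genes by p. After adjustment over all genes it did not pass (adjusted p 0.342), and 0 hosts were called, against 0.0188% of all genes. Snhg3, with a difference of -0.55 (SE 0.25, unadjusted p 0.0412, adjusted p 1), was the other host with an unadjusted p under 0.05. DESeq2 called Taf1d in this test (0.74, adjusted p 0.00613) and limma called 0 hosts. The group of mice and the kind of RNA cannot be told apart in it.

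The counting of several hosts could be touched by a neighbour, because the use of strand is not given in the sources used here. Taf1d (chr9:15306214-15316991, plus strand) shares 77 bases of exon with Cep295 and 235 with 4931406C07Rik, both on the opposite strand. Cep295 had log2 fold changes of -0.12 (mutant) and -0.04 (low-yield mutant) within group 2, and 4931406C07Rik -0.05 and 0.30, with none called. In group 1, Cep295 fell (-0.21, SE 0.06, adjusted p 0.0492).

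Zfas1 (chr2:167062934-167065862, plus strand) shares 82 bases of exon with Znfx1 on the opposite strand. Znfx1 fell in group 1 (-0.45, SE 0.10, adjusted p 0.0166), where Zfas1 had 71.2, 60.3 and 61.7 CPM in wildtype and 67.0, 60.8 and 67.2 in mutant libraries. The log2 fold change of Zfas1 there was 0.01. Snhg3 (chr4:132348014-132353686, minus strand) shares 135 bases of exon with Rcc1 on the same strand and 705 with Gm17300 on the opposite strand. Their group 1 log2 fold changes were 0.03 for Rcc1 and -0.15 for Gm17300, neither called.

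Gas5 (chr1:161034422-161038539, plus strand) overlaps Zbtb37 on the opposite strand with no exon in common. In group 2 Zbtb37 rose both in mutant libraries (0.49, adjusted p 0.0262) and in low-yield ones (0.39, adjusted p 0.0492). Snhg6 (chr1:9941959-9944118, minus strand) shares 127 bases of exon with Mcmdc2 on the opposite strand. Snhg1 (chr19:8723475-8726443, plus strand), Snhg5 (chr9:88521050-88522929, minus strand), Snhg8 (chr3:123507552-123508404, minus strand) and Snhg12 (chr4:132308623-132311024, plus strand) overlapped no annotated gene other than their snoRNAs.

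Other genes of the snoRNA pathway were taken from lists drawn up for this purpose. Of 14 other noncoding snoRNA hosts in the tables, 12 were tested in group 1 and 11 in group 2, and edgeR called 0 in each comparison with wildtype. In group 1, 3 of them had an unadjusted p under 0.05 and DESeq2 called 2, while limma called 0. For neither kind of group 2 mutant was an unadjusted p under 0.05 found (0 of 11), and both other tools called 0. Their median log2 fold changes were -0.15, -0.04 and 0.12 in the comparisons of group 1, mutant of group 2 and low-yield, beside -0.16, -0.07 and 0.13 for the 9 hosts.

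Protein-coding hosts outside the ribosome included members that moved in both directions. Of 21 tested, 3 were called higher and 2 lower in group 1, 2 higher and 1 lower in mutant libraries of group 2, and 3 higher and 1 lower in low-yield ones. Over all genes tested, in the same order, 5.79% were called higher and 6.78% lower, 3.32% and 2.95%, and 6.68% and 5.86%, and so few genes of a list are not read as a result about it. These shares apply equally to the lists that follow. Wdr43, a factor of small subunit processing, rose in all 3 comparisons (log2 fold change 0.31, 0.35 and 0.54). Ap1g1, a subunit of the clathrin adaptor complex of the Golgi, also rose in all 3 (0.37, 0.43 and 0.53). Tnpo2, a nuclear import receptor, fell in all 3 (-0.31, -0.32 and -0.29). Eif4a2, a helicase of translation initiation, fell in group 1 (-0.36), and Ncl, the nucleolar protein nucleolin, rose among low-yield mutants (0.37). Of 23 ribosomal protein hosts edgeR called 0 in each of these comparisons. In group 1, 3 of these had an unadjusted p under 0.05, and DESeq2 and limma called 2 each. In group 2, 0 had such a p in either comparison, and limma called 1 in the mutant.

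The proteins that assemble on snoRNAs were tested as 17 genes. Nufip1, an assembly factor, rose in group 1 (0.36) and among low-yield mutants (0.52). Fbl, the box C/D methyltransferase fibrillarin, rose in group 1 (0.26), and Nop58, a box C/D core protein, rose among low-yield mutants (0.26). For the other mutant of group 2, edgeR called 0, with 2 at an unadjusted p under 0.05, while DESeq2 called 0 and limma 3. The median over the list was 0.12, 0.10 and 0.15 in the 3 comparisons.

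Among 17 factors of nonsense-mediated decay, Nbas rose in group 1 (0.40) and Smg5 among low-yield mutants (0.29). For the other mutant of group 2, edgeR called 0, with 1 at an unadjusted p under 0.05, and DESeq2 called 0 and limma 2. The medians were -0.01, 0.06 and 0.09. Upstream of ribosomal RNA, the list of SL1 and RNA polymerase I genes, which does not include Taf1d, held 14 genes. Polr1a, the largest subunit of RNA polymerase I, rose in all 3 comparisons (0.50, 0.45 and 0.48), and Polr1d rose in group 1 (0.23). The medians over the list were 0.14, 0.15 and 0.20, with 4, 2 and 2 genes negative. Polr1a had 311, 315 and 295 CPM in the wildtype libraries of group 2, 417, 404 and 434 CPM with the mutation and 444, 439.7 and 403 CPM in the low-yield ones. Each mutant library was thus above each wildtype one, as for Taf1d. Every library was higher in 11.5% of all genes for the mutant and 15.3% for the low-yield mutant. In group 1 Polr1a had 158, 162 and 163 CPM in wildtype and 235, 208 and 238 in mutant libraries, whereas the Taf1d libraries overlapped there.

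**Figure D3:**
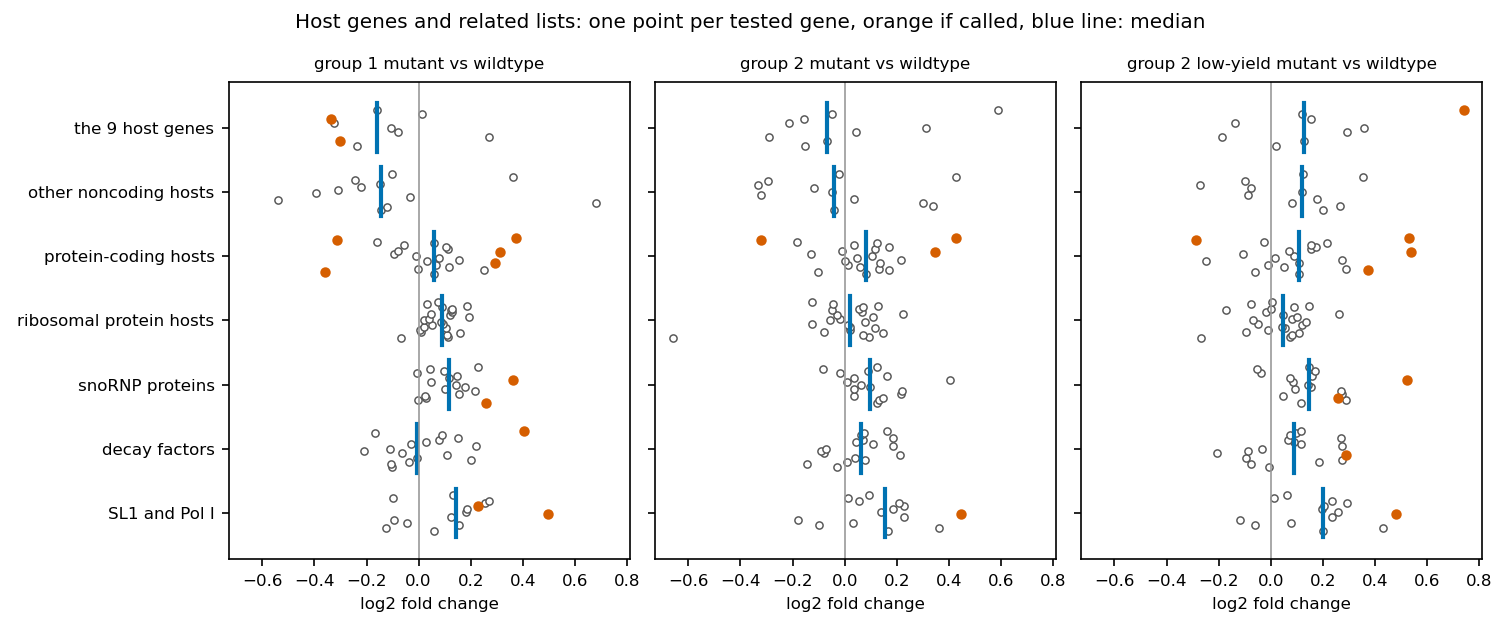
Log2 fold change against wildtype (horizontal axes, shared scale) of each tested gene of the 9 hosts and of 6 related lists, in the 3 comparisons. Orange points passed the test and blue lines mark list medians, which for the 9 hosts were -0.16, -0.07 and 0.13.

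The likeness of the hosts from library to library is given as a description. For each gene, log2 CPM was centred on the mean of its group of mice, and the 9 hosts were standardised and averaged to a profile over the 15 libraries. Pearson's r with that profile is raised because each host contributes to it, and was 0.91 for Snhg1, 0.87 for Gas5, 0.86 for Snhg12, 0.77 for Zfas1, 0.74 for Snhg5, 0.65 for Taf1d, 0.62 for Snhg8 and 0.54 for Snhg6. Snhg3 was at -0.20. Over the 36 pairs of hosts the median r was 0.38, the range was -0.59 to 0.91, and 7 pairs were negative. The profile was highest in wildtype replicate 1 of group 1 (1.12 in units of SD) and in low-yield replicates 2 (0.97) and 1 (0.92). It was lowest in mutant replicate 3 of group 2 (-1.13). Wildtype replicate 1 had the lowest granulocyte sum of group 1, whereas low-yield replicate 1 had the highest of group 2 (372 CPM). The profile thus differed between replicates of a group, and the correlations mix that spread with genotype.

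Outside the 9 hosts, the genes closest to the profile among 7974 with a mean CPM of at least 10 in both groups of mice were Snhg4 (Pearson r 0.94, Spearman rho 0.86), Snhg17 (0.93 and 0.93), 2410002F23Rik (0.91 and 0.93), Srsf5 (0.87 and 0.86) and Zfp408 (0.87 and 0.86). The first pair are also snoRNA hosts, and Srsf5 is a splicing factor. These are descriptions over 15 libraries that share depth, scaling and group, chosen for their likeness. In group 1 Srsf5 fell in the mutant (-0.22, SE 0.06, adjusted p 0.0307), and Snhg17 had -0.31 (SE 0.11, adjusted p 0.0974). Snhg4 (-0.14), 2410002F23Rik (-0.18) and Zfp408 (-0.24) were not called there. The profile itself holds the genotype difference, so these signs are partly given by the choice of genes.

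**Figure D4:**
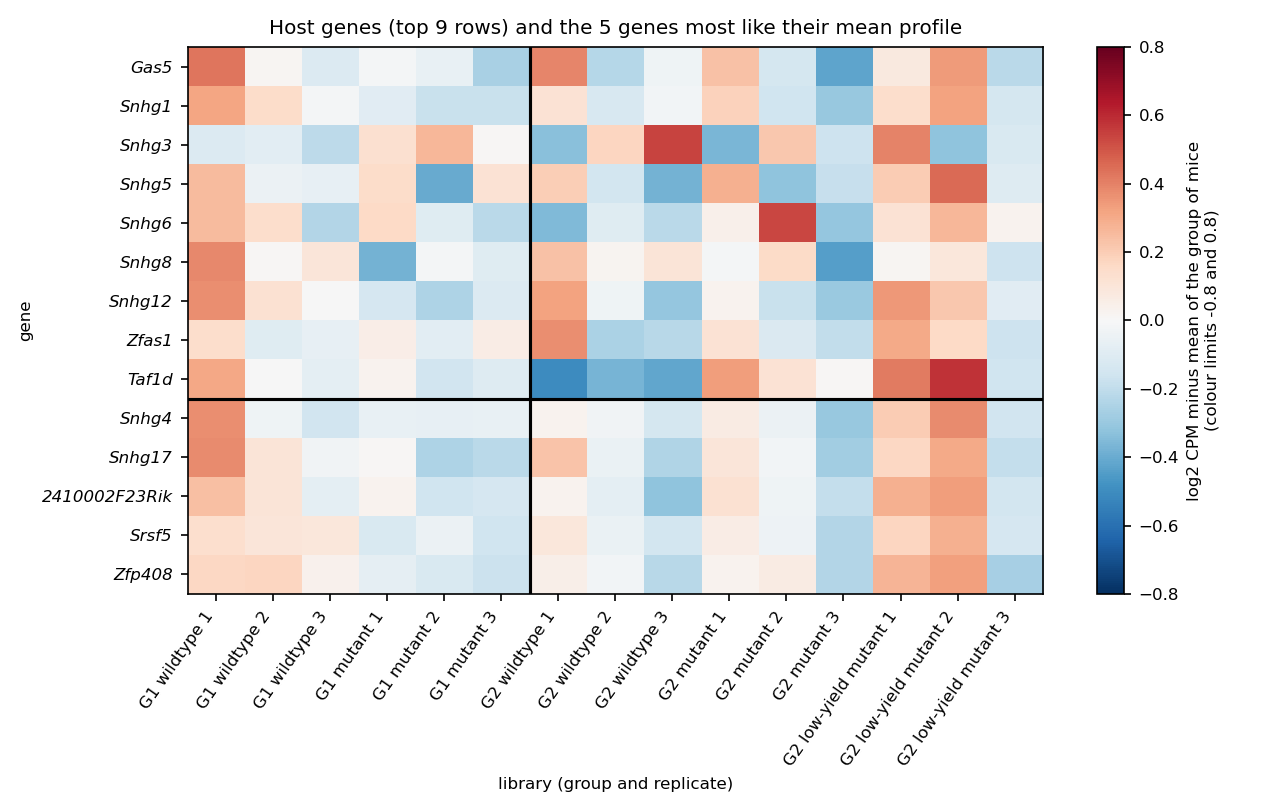
Log2 CPM minus the mean of the group of mice (colour, from -0.8 to 0.8) for the 9 hosts (upper rows) and the 5 genes most like their mean profile (lower rows) in the 15 libraries (columns). Wildtype replicate 1 of group 1 is high in most rows, and Snhg3 has an r of -0.20 with the mean profile.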

How the data were processed

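The authors deposited 2 tables of expected counts per gene, one for each group of mice, estimated from reads and not normalised; the submitters' processing notes name cutadapt 2.3, FastQC 0.11.8, STAR 2.7.8a, RSEM 1.3.3, MultiQC 1.7 and GRCm38. Which annotation was used, and whether counting used strand, is not given in the sources used here. Replicates were not pooled in the tables. The expected counts were rounded to whole numbers and tested in R 4.3.3 with edgeR 4.0.16 (TMM scaling, filterByExpr, robust quasi-likelihood fit, F test, two-sided), adjusted by Benjamini-Hochberg across all genes tested, with a threshold of 0.05. Genes past it are called. Group 1 (6 libraries) was fitted alone, group 2 (9 libraries) in 1 fit, and the 12 wildtype and mutant libraries of both groups together for the shared effect and the interaction. Reporter rows, with 5 counts in all, were left out of totals and tests.

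Same-numbered libraries of group 1 deviated together from their group means (r across genes 0.441, 0.186 and 0.146, each above 0.1). The fit with the replicate number as a block is therefore given beside its results. In group 2 not every pair did, and between its wildtype and mutant r was 0.241, 0.173 and 0.024. In both groups, wildtype replicate 3 was closer to a mutant library of another number than to its own. The labels do not say what the numbers mark, so the pairing is not established.

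Named genes were all 9 hosts, up to 3 called genes with the smallest p per list and comparison, Rpl5, and the 5 genes most like the hosts' mean profile (log2 CPM with a prior count of 2). Cep295, 4931406C07Rik, Znfx1, Zbtb37, Rcc1, Gm17300 and Mcmdc2 were named for their overlap with a host. The hosts, lists and markers were chosen with earlier results of these data known. Of 2 rows named Snhg4 the one with more counts was used. Gene models are from GENCODE M21 (GRCm38), possibly not the authors' release. Alternatives were RLE scaling, DESeq2 1.42.0, limma 3.58.1 (voom with quality weights), other filters, the replicate block, host and snoRNA rows summed, the 6 compared libraries alone, and each library left out. The scripts were tested on simulated data with planted changes larger than any fold change of the hosts, so that test does not cover effects of their size.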

Additional observations from a re-analysis of the deposited data

How the results depend on the processing

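The replicate block called 4 hosts in group 1 and, although the numbers do not pair all libraries, 1 (Taf1d) in the group 2 mutant, 4 over both groups (Gas5, Snhg1, Snhg8 and Snhg12) and 1 (Taf1d) in the interaction. Over all genes the same fits called 20.4%, 8.71%, 24.4% and 0.0313%. In the low-yield comparisons the block changed no call. In the group 2 mutant, DESeq2, a mean CPM of at least 5 and the 6 compared libraries alone each called 1 host, Taf1d. Over both groups, RLE scaling, limma and no filter on low counts each called 1 and DESeq2 called 2. DESeq2 called 1 in the interaction. The number of all genes called differed from the main test by over 1.5 times with the block in group 1 (2863 against 1766), with limma in the group 2 mutant (2000 against 942) and the low-yield mutant (3399 against 1004 higher and 880 lower), with DESeq2 between the mutants (6 against 0), and in the interaction with DESeq2 (12) or the block (5) against 3. Summing the host with its snoRNA rows changed no count of called hosts. The cause of these differences was not tested.

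Leaving out each library in turn gave 0 to 2 called hosts in group 1 and over both groups, 0 to 1 in the group 2 mutant and in the low-yield mutant, and 0 in the other comparisons. The share of all genes called moved as well, over 5.19% to 12% in group 1, 15.1% to 21.6% over both groups, 2.74% to 8.49% in the group 2 mutant, 5.79% to 15.4% in the low-yield mutant, 0% to 0.142% between the mutants (without low-yield replicate 3) and 0.0119% to 0.018% in the interaction. Over both groups the calls were Snhg1 and Snhg12 without group 2 mutant replicate 1, Snhg12 without group 2 wildtype replicate 3, and Snhg8 without group 1 wildtype replicate 2 or group 2 mutant replicate 2. Apart from leaving out libraries, 379 log2 fold changes of hosts kept sign and side of the threshold, 17 gained a call and 6 changed sign, all with limma: Zfas1 in the group 2 mutant (0.0567), over both groups (0.045) and in the interaction (0.0301), Snhg5 (0.0175) and Snhg6 (-0.0867) over both groups, and Snhg8 in the interaction (-0.0477).

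No value that changed sign when a library was left out was called. In group 1 the ranges were -0.1765 to 0.0739 for Snhg5, -0.242 to 0.0131 for Snhg6 and -0.0338 to 0.1065 for Zfas1. In the group 2 mutant they were -0.3369 to 0.0471 for Gas5, -0.2134 to 0.0351 for Snhg1, -0.3017 to 0.0306 for Snhg12, -0.1478 to 0.2207 for Snhg5 and -0.1587 to 0.188 for Zfas1. In the low-yield mutant they were -0.122 to 0.2161 for Gas5 and -0.4018 to 0.0632 for Snhg3. Between the mutants they were -0.1129 to 0.2657 for Snhg3, -0.1612 to 0.2791 for Snhg6 and -0.0854 to 0.2044 for Snhg8. Over both groups they were -0.1169 to 0.0668 for Snhg5, -0.067 to 0.1106 for Snhg6 and -0.0596 to 0.0763 for Zfas1. In the interaction they were -0.1207 to 0.263 for Gas5, -0.0864 to 0.2812 for Snhg5, -0.0422 to 0.2621 for Snhg8 and -0.1885 to 0.1531 for Zfas1.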
